A study of Mus musculus with 12 samples.

Results

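The genes described here are 10 genes of the integrated stress response, Atf4, Ddit3, Atf3, Nupr1, Trib3, Ppp1r15a, Sesn2, Ddit4, Asns and Chac1, chosen by name from the 24454 gene IDs of one expression table. The table covers 3 mesenchymal mouse breast cancer lines. The lines PyMT-1099 LT and Py2T LT derive from MMTV-PyMT and the line MT∆Ecad from MMTV-Neu mammary tumours, and MT∆Ecad cells lack E-cadherin by deletion of its gene, Cdh1. In these mouse strains a mouse mammary tumour virus promoter drives the oncogene in the mammary epithelium. Cells of each line were transfected for 48 hours with Nrf2-targeting siRNA (siNrf2) or with non-targeting siRNA (siCtl), and each of the 6 groups holds 2 libraries, numbered 1 and 2. Each line is a single line, so the spread between libraries is that of repeated cultures at most and not that of separate tumours.

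In the integrated stress response, kinases that sense unfolded protein, amino acid shortage, haem shortage or viral RNA phosphorylate the initiation factor eIF2. General translation then drops, while the Atf4 mRNA is translated better through its upstream reading frames. ATF4 protein, often paired with a C/EBP factor, switches on genes for amino acid supply, redox balance, growth restraint and, if stress lasts, cell death. The same programme helps tumour cells to live with poor nutrient supply. Because ATF4 is controlled at translation, its mRNA level is not a measure of its activity.

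ATF4 with a C/EBP partner binds a composite sequence, the C/EBP-ATF response element, searched here as TGATGNAA on both strands. All 10 genes had a promoter window in RefSeq (GRCm38.p6), 250 bases before to 50 bases after the start of the gene. The element was found in 5 of the 10 windows, against 3.97% of all 32851 windows. The pieces shown are 120 bases each, 5′ to 3′ on the strand of the gene, with the element in capitals, because these are the genes in which the known ATF4 binding sequence can be read. The Atf3, Chac1 and Nupr1 pieces hold the identical match TTGCATCA.
Chac1: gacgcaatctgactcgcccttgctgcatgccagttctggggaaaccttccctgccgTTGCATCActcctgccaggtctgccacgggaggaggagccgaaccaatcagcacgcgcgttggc
Nupr1: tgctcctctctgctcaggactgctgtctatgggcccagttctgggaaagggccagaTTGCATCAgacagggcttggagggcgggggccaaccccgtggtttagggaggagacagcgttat
Atf3: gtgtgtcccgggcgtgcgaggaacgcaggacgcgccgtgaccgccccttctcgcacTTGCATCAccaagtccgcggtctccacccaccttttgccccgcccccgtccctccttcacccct
Trib3: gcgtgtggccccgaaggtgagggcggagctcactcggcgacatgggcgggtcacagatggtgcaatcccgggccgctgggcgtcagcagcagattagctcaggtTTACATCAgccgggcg
Asns: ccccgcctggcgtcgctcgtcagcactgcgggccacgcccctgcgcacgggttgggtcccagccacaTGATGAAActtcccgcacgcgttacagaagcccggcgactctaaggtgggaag
The piece of Chac1 lies on the + strand at chr2:119350993-119351112. Those of Nupr1 (chr7:126625517-126625636), Atf3 (chr1:191183380-191183499), Trib3 (chr2:152344031-152344150) and Asns (chr6:7693180-7693299) lie on the − strand. In Nupr1 and in Atf3 the element begins 110 bases before the start of the gene, in Chac1 193 bases before it and in Asns 23 bases before it. In Trib3 it begins 14 bases after the start.

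Sequence classes bound by other stress factors were read in the same windows. The antioxidant response element core, TGACNNNGC, to which NRF2 binds with a small MAF partner, was found in Sesn2, Asns and Ppp1r15a, against 12.4% of all windows. The cAMP response element TGACGTCA was found in Ppp1r15a, against 1.79% of all windows. A piece of Sesn2, which passed the test of the siNrf2 effect, and a piece of Ppp1r15a, which did not, are shown. In the Sesn2 piece the capitals mark the antioxidant core, and in the Ppp1r15a piece they mark the cAMP response element. The Ppp1r15a piece also holds the antioxidant core, as gccgcgtca in lower case, so both pieces hold this core. The part of these sequences in the siNrf2 effect was not tested.
Sesn2: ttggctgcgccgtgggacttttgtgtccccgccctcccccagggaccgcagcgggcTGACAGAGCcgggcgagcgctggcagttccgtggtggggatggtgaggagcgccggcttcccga
Ppp1r15a: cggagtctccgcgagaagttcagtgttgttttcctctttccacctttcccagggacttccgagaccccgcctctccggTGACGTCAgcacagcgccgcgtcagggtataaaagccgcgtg
These pieces lie on the − strand at chr4:132510429-132510548 and chr7:45526239-45526358. The ER stress element, bound by ATF6, was found in 0 of the 10 windows, against 0.119% of all windows. A match is a run of letters and not a measured binding site.

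The libraries held 27088970 to 37070635 reads, and the 10 genes had 123 to 24787 reads in a library, so that each was well above the limit of 3 reads that a count of 0 allows. Levels are given in CPM, reads of the gene scaled to a fixed library total. Nfe2l2, the gene of Nrf2, was lower in each siNrf2 library than in both siCtl libraries of its line, with an average log2 change of −1.91 ± 0.0683 (SE; limma adjusted p = 5.26e-06). The mesenchymal markers Vim, Cdh2, Zeb1, Fn1 and Sparc were detected in each line. Cdh2 stood at 14.8 CPM or less in Py2T LT, against 205 to 237 CPM in PyMT-1099 LT and 215 to 240 CPM in MT∆Ecad. Of the epithelial markers, Epcam and Cldn7 were listed at 0 in PyMT-1099 LT, and Epcam stood at 16.7 to 30.8 CPM in Py2T LT. Cdh1 stood at 0.315 to 0.639 CPM in MT∆Ecad, at 47.8 to 62.1 CPM in PyMT-1099 LT and at 12.5 to 18.1 CPM in Py2T LT. Krt8 and Krt18 were high in all 3 lines. The 4 leukocyte markers summed to at most 6.25 CPM, nearly all of it Cd68. Of the endothelial markers, Pecam1 stood at 0.205 CPM or less in each library, while Cdh5 stood at 88.0 to 124 CPM in PyMT-1099 LT. Several marker sums were apart between siCtl and siNrf2. The 2 endothelial markers, nearly all Cdh5, summed to 88.0 to 90.7 CPM with siCtl and to 122 to 124 CPM with siNrf2 in PyMT-1099 LT. The 5 epithelial markers went from 3757 to 4358 CPM up to 4526 to 5394 CPM in this line, and in MT∆Ecad from 983 to 1107 CPM up to 1235 to 1245 CPM. The 5 mesenchymal markers summed to 11937 to 12522 CPM in the siCtl libraries of MT∆Ecad and to 16420 to 17317 CPM in its siNrf2 libraries, and they were apart by less in PyMT-1099 LT (9858 to 10225 CPM against 10693 to 11302 CPM) and Py2T LT (10717 to 11531 CPM against 11609 to 11920.4 CPM). The part of these differences in the results for the stress genes was not tested.

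After Nrf2 knockdown, 5 of the 10 stress response genes rose on the average of the 3 lines: Chac1, Sesn2, Ddit4, Nupr1 and Asns. None of the 10 fell, and Atf4 itself did not pass the test. The changes are differences of log2(CPM + 1), which understate the change of low genes, averaged over the lines with equal weight. A gene is called where the limma p-value, adjusted over all 12502 tested genes, is under 0.05. Of all tested genes, 5.99% were called higher and 6.26% lower. The 10 genes, and the lists below, were chosen with earlier results of these data known, so comparison with these shares is descriptive. The median change of the 10 genes was 0.38, with 8 above and 2 below 0, against −0.01 for all tested genes. The labels do not say what the replicate numbers mark. Libraries of the same number were taken as pairs within a line because their deviations were correlated in these data. With these pairs as a block 7 of the 10 were called higher, Ddit3 and Trib3 in addition. In that fit 19.0% of all genes were called higher and 21.0% lower. With edgeR on the recovered reads 4 were called higher (without Ddit4; 3.22% of all genes), and with DESeq2 6 (with Trib3; 5.52% of all genes).

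Atf4 (chr15:80255184-80257545), which encodes the central transcription factor of the response, was the most abundant of the 10 and showed no call. In PyMT-1099 LT it stood at 733 and 708 CPM with siCtl (numbers 1 and 2) and at 733 and 668 CPM with siNrf2. Py2T LT gave 568 and 526 CPM with siCtl and 598 and 531 CPM with siNrf2, and MT∆Ecad 479 and 503 CPM against 486 and 444 CPM. The siCtl and siNrf2 libraries overlapped in each of the 3 lines. Its average log2 change was −0.03 ± 0.0521 (SE), with a 95% interval from −0.14 to 0.09 (limma adjusted p = 0.805).

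Ddit3 (chr10:127290793-127296291) encodes CHOP, a C/EBP family factor linked to cell death under lasting stress. It was the lowest of the 10 in PyMT-1099 LT, at 6.71 and 5.57 CPM with siCtl and 6.73 and 7.02 CPM with siNrf2. Levels in Py2T LT were 17.4 and 10.5 CPM with siCtl and 18.8 and 12.9 CPM with siNrf2, and in MT∆Ecad 13.6 and 14.5 CPM against 20.3 and 17.1 CPM. The siNrf2 library was the higher one in 6 of 6 pairs, by 0.0034 to 0.55 on the log2 scale, and the groups were apart in PyMT-1099 LT and MT∆Ecad. The average change was 0.24 ± 0.134 (SE), with a limma adjusted p of 0.284 and, with the pairs as a block, of 0.024.

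Atf3, which encodes a bZIP factor that is both an ATF4 target and an immediate early gene, was higher at number 1 than at number 2 in 5 of 6 groups. PyMT-1099 LT gave 16.3 and 15.7 CPM with siCtl and 20.6 and 15.2 CPM with siNrf2. In Py2T LT the values were 18.7 and 10.9 CPM against 28.8 and 13.2 CPM, and in MT∆Ecad 4.28 and 4.54 CPM against 8.74 and 3.69 CPM. The number 1 siNrf2 library was the highest of its line in each line. The average change was 0.30 ± 0.239 (SE; limma adjusted p = 0.471; with the pairs as a block 0.134), and siNrf2 was higher in 4 of 6 pairs.

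Nupr1, which encodes a small chromatin-associated stress protein, had the smallest average p-value of the 10. Its siCtl libraries stood at 25.4 and 26.8 CPM in PyMT-1099 LT and its siNrf2 libraries at 35.7 and 36.9 CPM. Py2T LT held 64.3 and 62.4 CPM with siCtl and 69.0 and 70.7 CPM with siNrf2, and MT∆Ecad 18.4 and 21.8 CPM against 36.5 and 34.6 CPM. Both siNrf2 libraries lay above both siCtl libraries in each line. The average change was 0.47 ± 0.0557 (SE; limma adjusted p = 0.0026). In MT∆Ecad Nupr1 rose by 0.80 ± 0.0965 (SE; limma adjusted p = 0.00132), which is 1.77 times the mean siCtl CPM. In PyMT-1099 LT the change was 0.46 ± 0.0965 (SE) and was called only with the pairs as a block (limma adjusted p = 0.101, blocked 0.0222) and by DESeq2 (adjusted p = 0.0226).

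Trib3 encodes a pseudokinase that binds ATF4 and AKT and acts as feedback on the programme. It stood at 34.3 and 30.3 CPM with siCtl and at 56.9 and 43.6 CPM with siNrf2 in PyMT-1099 LT. Py2T LT gave 30.0 and 21.1 CPM against 40.5 and 22.4 CPM, and MT∆Ecad 16.2 and 16.2 CPM against 30.8 and 24.2 CPM. Its groups were apart in PyMT-1099 LT and MT∆Ecad and overlapped in Py2T LT, and siNrf2 was higher in 6 of 6 pairs. The average change of 0.53 ± 0.156 (SE) missed the threshold (limma adjusted p = 0.0576) and passed it with the pairs as a block (limma adjusted p = 0.00145).

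Ppp1r15a encodes GADD34, the phosphatase subunit that reverses eIF2 phosphorylation, and it differed between replicate numbers rather than between siRNAs. Number 1 and number 2 of the siCtl group stood at 35.4 and 27.1 CPM in PyMT-1099 LT, 44.7 and 22.9 CPM in Py2T LT and 30.6 and 20.6 CPM in MT∆Ecad. The corresponding siNrf2 libraries stood at 38.8 and 24.5 CPM, 50.6 and 22.3 CPM, and 32.5 and 16.2 CPM. Number 1 was higher in 6 of 6 groups, by 0.37 to 1.15 on the log2 scale. The average siNrf2 change was −0.02 ± 0.274 (SE; limma adjusted p = 0.976), and the differences within pairs ran from −0.32 to 0.17, with siNrf2 higher in 3 of 6.

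Sesn2 and Ddit4 are brakes on the growth kinase mTORC1: sestrin 2 senses leucine and is also an antioxidant gene that NRF2 is known to drive, and DDIT4 (REDD1) acts through the TSC complex. Sesn2 stood at 25.6 and 28.5 CPM with siCtl and at 38.4 and 38.3 CPM with siNrf2 in PyMT-1099 LT. It stood at 20.1 and 19.2 CPM against 27.8 and 21.4 CPM in Py2T LT, and at 21.6 and 28.9 CPM against 42.9 and 38.5 CPM in MT∆Ecad. Both siNrf2 libraries were above both siCtl libraries in each line. Sesn2 rose by 0.49 ± 0.0915 (SE) on average (limma adjusted p = 0.0127), and by 0.68 ± 0.159 (SE) in MT∆Ecad (limma adjusted p = 0.0194). With 1 library left out the MT∆Ecad change ran from 0.48 to 0.88. Its call was lost without the number 1 siCtl library or either siNrf2 library of MT∆Ecad. It was also lost with only the groups compared (limma adjusted p = 0.0941).

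Ddit4 (chr10:59949675-59951770) changed most in MT∆Ecad. There it stood at 84.1 and 140.4 CPM with siCtl and at 206 and 217 CPM with siNrf2. PyMT-1099 LT gave 136 and 184 CPM against 191 and 203 CPM, and Py2T LT 232 and 253 CPM against 298 and 239 CPM. The groups were apart in MT∆Ecad and PyMT-1099 LT, with siCtl libraries that differed from each other in both, and they overlapped in Py2T LT. Ddit4 rose by 0.95 ± 0.225 (SE) in MT∆Ecad (limma adjusted p = 0.0204), 1.88 times the mean siCtl CPM. Without the number 1 siCtl library this was 0.59 and without the number 2 siCtl library 1.32. The call was lost in 3 of 12 fits that leave out 1 library. These were the fits without the number 1 siCtl library or either siNrf2 library of MT∆Ecad. Only the fits without 1 of the 4 MT∆Ecad libraries change the difference itself. The average rise of Ddit4, 0.47 ± 0.13 (SE), lies next to the threshold (limma adjusted p = 0.0476), and edgeR gave an adjusted p of 0.0608.

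Asns encodes asparagine synthetase, which makes asparagine from aspartate and glutamine and is a classical ATF4 target. In PyMT-1099 LT it stood at 315 and 281 CPM with siCtl and at 415 and 341 CPM with siNrf2. Py2T LT gave 232 and 210.1 CPM against 282 and 242 CPM, and MT∆Ecad 189 and 185 CPM against 235 and 223 CPM. The groups were apart in each line, and the differences within pairs kept to a narrow range of 0.20 to 0.40 on the log2 scale. Asns rose by 0.29 ± 0.0673 (SE) on average (limma adjusted p = 0.0262), and no single line passed the test without the block.

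Chac1 encodes an enzyme that cleaves glutathione, the main thiol antioxidant of the cell, and had the largest average change of the 10. It stood at 40.6 and 38.2 CPM with siCtl and at 78.2 and 61.2 CPM with siNrf2 in PyMT-1099 LT. Py2T LT gave 18.8 and 13.5 CPM against 30.5 and 18.3 CPM, and MT∆Ecad 12.7 and 13.4 CPM against 37.1 and 19.9 CPM. The groups were apart in PyMT-1099 LT and MT∆Ecad, and the number 2 siNrf2 library was the lower one in each line. Chac1 rose by 0.78 ± 0.176 (SE) on average (limma adjusted p = 0.0243). In MT∆Ecad the change was 1.01 ± 0.306 (SE), 2.18 times the mean siCtl CPM, and missed the threshold (limma adjusted p = 0.0523; 0.00637 with the pairs as a block, 0.0465 in edgeR and 0.00496 in DESeq2). Without the number 1 siNrf2 library of MT∆Ecad it was 0.58, and without the number 2 siNrf2 library 1.44.

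Counted by line, 3 of the 10 genes rose in MT∆Ecad (Nupr1, Sesn2 and Ddit4), where 8.89% of all tested genes were called higher. In this line edgeR called 4 of the 10 and DESeq2 4. Both methods called fewer of all tested genes higher in MT∆Ecad than limma did. In PyMT-1099 LT limma called 0 of the 10, where 0.336% of all genes were called higher. There edgeR called 0 of the 10, among 2 tested genes called higher, and DESeq2 1, among 43. In limma 5 of the 10 had an unadjusted p under 0.05. The share of all genes at that unadjusted cutoff was not counted, here or below, so this 5 has no background beside it. In Py2T LT limma called 0 of the 10, where 0.0560% of all genes were called higher, and 0 had an unadjusted p under 0.05. For this line edgeR called 0 of the 10, among 0 tested genes called higher, and DESeq2 0, among 2. With the pairs as a block the counts were 7 in MT∆Ecad (21.4% of all genes), 3 in PyMT-1099 LT (Nupr1, Trib3 and Asns; 5.05%) and 0 in Py2T LT (0.344%). Both siNrf2 libraries stood above both siCtl libraries for 7 of the 10 genes in PyMT-1099 LT (20.0% of all genes), for 3 in Py2T LT (Nupr1, Sesn2 and Asns; 7.63%) and for 7 in MT∆Ecad (32.5%). The 7 were Ddit3, Nupr1, Trib3, Sesn2, Ddit4, Asns and Chac1 in PyMT-1099 LT and in MT∆Ecad.

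**Figure D1:**
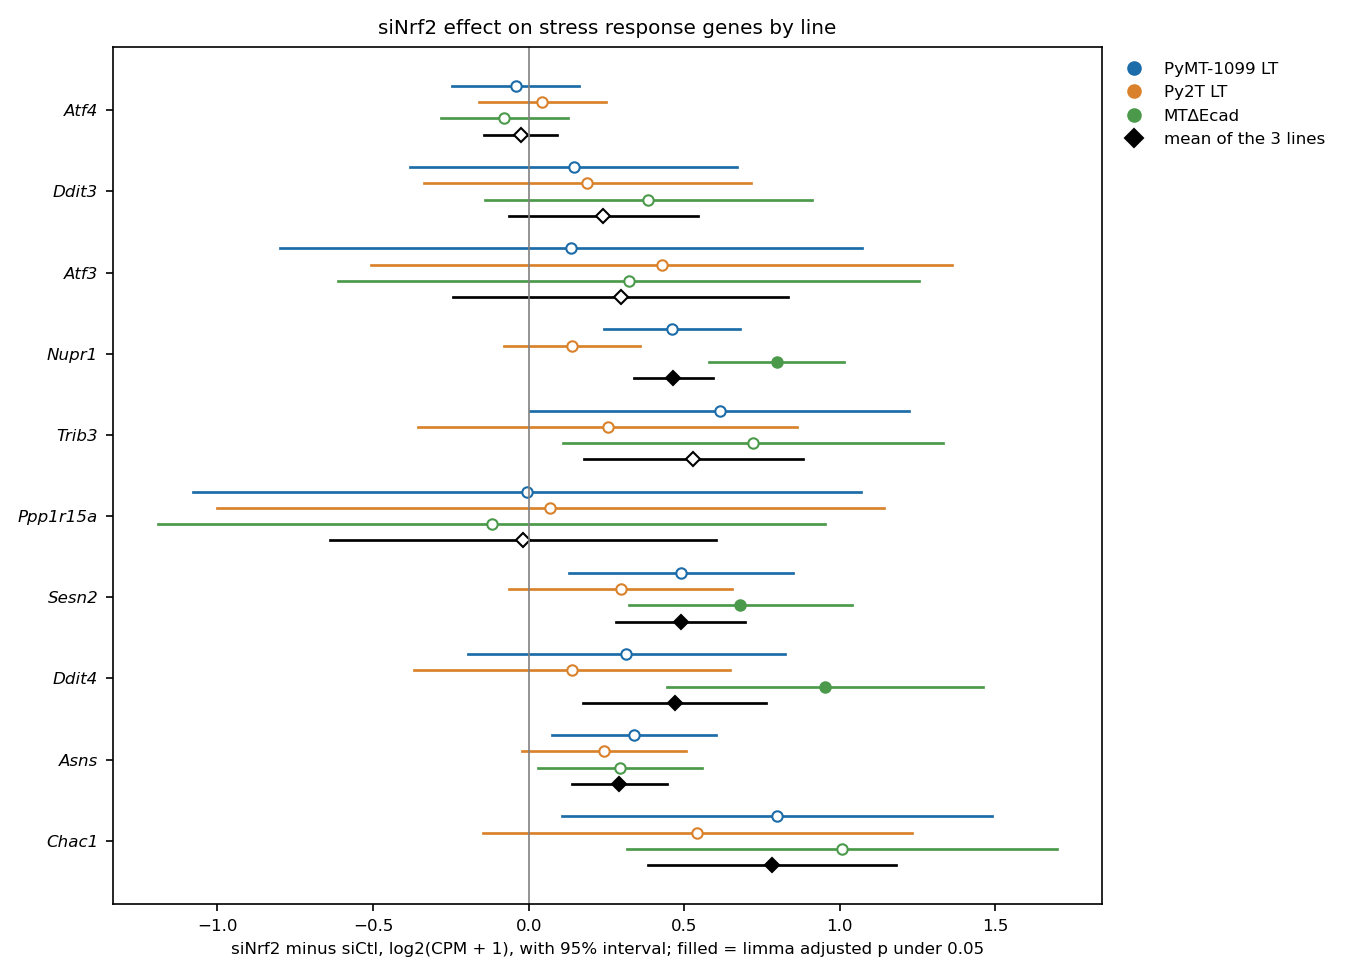
siNrf2 minus siCtl on the log2(CPM + 1) scale for each gene in each line and on the average of the lines, with 95% limma intervals; filled symbols have a limma adjusted p under 0.05. Filled diamonds mark Nupr1, Sesn2, Ddit4, Asns and Chac1, and the intervals of Atf3 and Ppp1r15a are the widest.

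Whether the effect differs between the lines was tested with an F test. It called 0 of the 10 genes, against 2.18% of all genes; at an unadjusted p under 0.05 it held 1 of them, Nupr1, which DESeq2 called and edgeR did not. Nupr1 was also the only one called for the difference between MT∆Ecad and Py2T LT, 0.66 ± 0.136 (SE; limma adjusted p = 0.0363), where 3.50% of all genes were called. Its F test gave a limma adjusted p of 0.0821 (0.0216 with the pairs as a block, 0.0332 in DESeq2), and edgeR gave 0.0768 for the pair of lines. For Ddit4 the same difference was 0.81 with a 95% interval from 0.09 to 1.53 (limma adjusted p = 0.211; 0.047 with the pairs as a block). For Chac1 it was 0.46 with an interval from −0.51 to 1.44, and for Asns 0.05 with an interval from −0.32 to 0.43. The absence of a call in Py2T LT is therefore not in itself a difference from the other lines; for Nupr1, Py2T LT minus PyMT-1099 LT gave −0.32 (limma adjusted p = 1, with the block 0.319).

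Within pairs, siNrf2 was above siCtl in 6 of 6 pairs for 6 of the 10 genes, Ddit3, Nupr1, Trib3, Sesn2, Asns and Chac1, against 7.77% of all tested genes. The pairs numbered 1 gave larger differences than those numbered 2. For 8 of the 10 genes the number 1 difference was the larger one in 3 of 3 lines, against 22.4% of all genes, and the exceptions were Ddit3 and Nupr1. The median difference over the lines was 0.56 in the number 1 pairs and 0.26 in the number 2 pairs. In the number 1 pairs 10 of the 10 genes were higher with siNrf2 in all 3 lines, against 20.5% of all genes. In the number 2 pairs 6 of the 10 were, against 16.1%. Chac1 differed by 1.02 in the number 1 pairs and 0.54 in the number 2 pairs, averaged over the lines, Ddit4 by 0.71 and 0.23, and Nupr1 by 0.51 and 0.42. For Chac1, Trib3, Sesn2, Asns, Nupr1 and Ddit3 siNrf2 was the higher library at both numbers in each line.

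**Figure D2:**
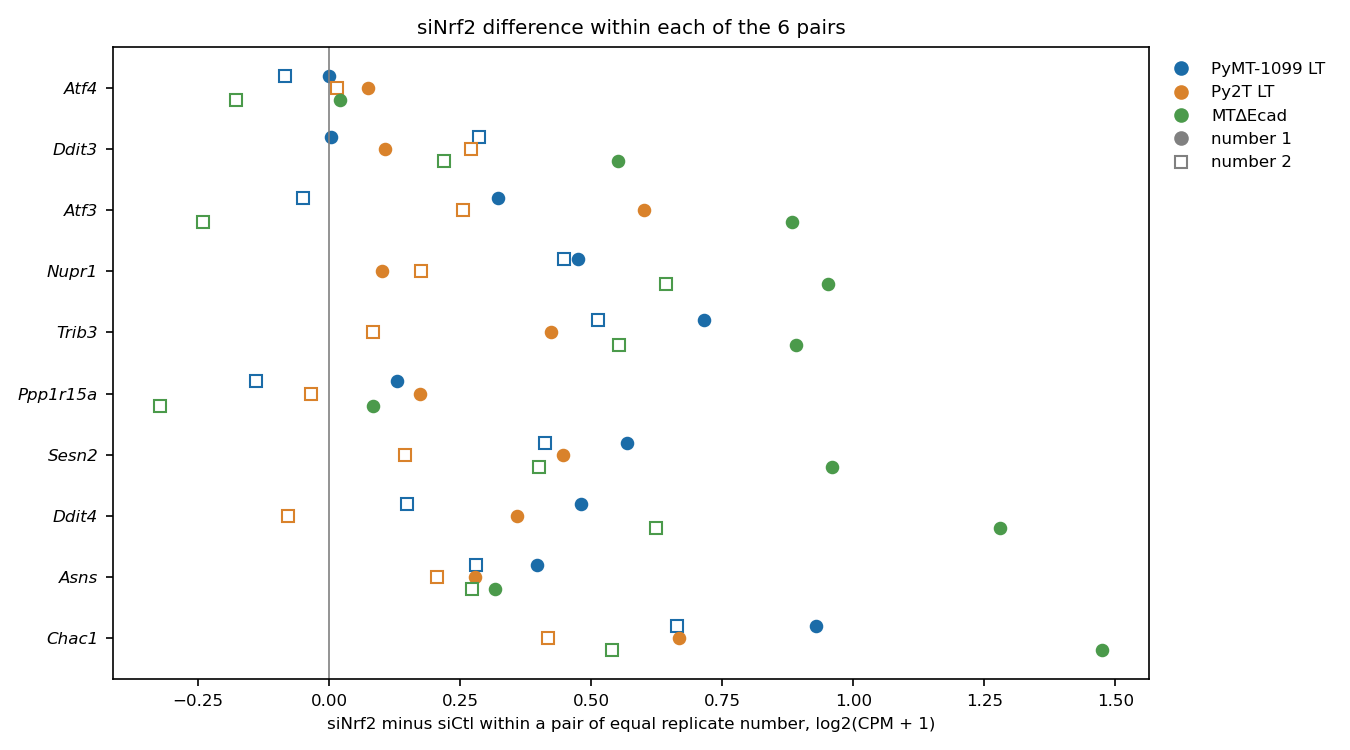
siNrf2 minus siCtl within each of the 6 pairs, on the log2(CPM + 1) scale; colours are lines, filled circles are number 1 and open squares number 2. The filled circles lie to the right for Chac1, Ddit4, Sesn2 and Atf3, and the points of Asns lie close together between 0.20 and 0.40.

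The number also moved the level itself. Number 1 exceeded number 2 in 6 of 6 groups for Ppp1r15a and Asns, against 6.93% of all genes. Of the 13 immediate early genes listed, which respond within minutes to handling and serum, 9 did so, with a median difference of 0.40 on the log2 scale. What the numbers mark is not given in the labels, and the part of handling in the stress gene values was not tested.

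Between the lines without knockdown the counts of the 10 genes called stood beside large shares of all genes: 7 of 10 between Py2T LT and PyMT-1099 LT (55.6% of all genes), 7 between MT∆Ecad and PyMT-1099 LT (57.6%) and 3 between MT∆Ecad and Py2T LT (54.4%). These 3 comparisons share their siCtl libraries. Compared per kb of exon, which allows genes to be set side by side, Atf4 was the highest of the 10 in siCtl in each line. It stood at 306 ± 7.50 CPM per kb in PyMT-1099 LT, at 232 ± 12.7 in Py2T LT and at 208 ± 7.22 in MT∆Ecad (SD, n = 2). Asns and Ddit4 came next, at 68.2 to 109 and 64.0 to 138 CPM per kb, and in each line the other genes lay at 25.2 CPM per kb or below. The mean siCtl level of PyMT-1099 LT was the highest of the 3 lines for 6 genes: Atf4, Atf3, Trib3, Sesn2, Asns and Chac1. Py2T LT was highest for Nupr1, Ddit4 and Ppp1r15a, and MT∆Ecad for Ddit3.

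Chac1 was lower in Py2T LT than in PyMT-1099 LT by a log2 difference of −1.26 ± 0.306 (SE; limma adjusted p = 0.00633), and Py2T LT and MT∆Ecad did not differ beyond their spread (−0.27 ± 0.306; limma adjusted p = 0.494). Nupr1 separated all 3 lines: Py2T LT exceeded PyMT-1099 LT by 1.25 ± 0.0965 (SE; limma adjusted p = 2.95e-06), and MT∆Ecad lay below PyMT-1099 LT at −0.37 ± 0.0965 (SE; limma adjusted p = 0.00921). The call between MT∆Ecad and PyMT-1099 LT was lost with only the groups compared (limma adjusted p = 0.0573). With 1 library left out this difference lay between −0.48 and −0.25. Ddit3 ran the other way, lowest in PyMT-1099 LT, with Py2T LT higher by 1.03 ± 0.233 (SE; limma adjusted p = 0.00417) and no difference beyond the spread between Py2T LT and MT∆Ecad. Atf3 was lowest in MT∆Ecad, at −1.65 ± 0.413 (SE) against PyMT-1099 LT (limma adjusted p = 0.00708). For Ppp1r15a no pair of lines differed beyond the spread.

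**Figure D3:**
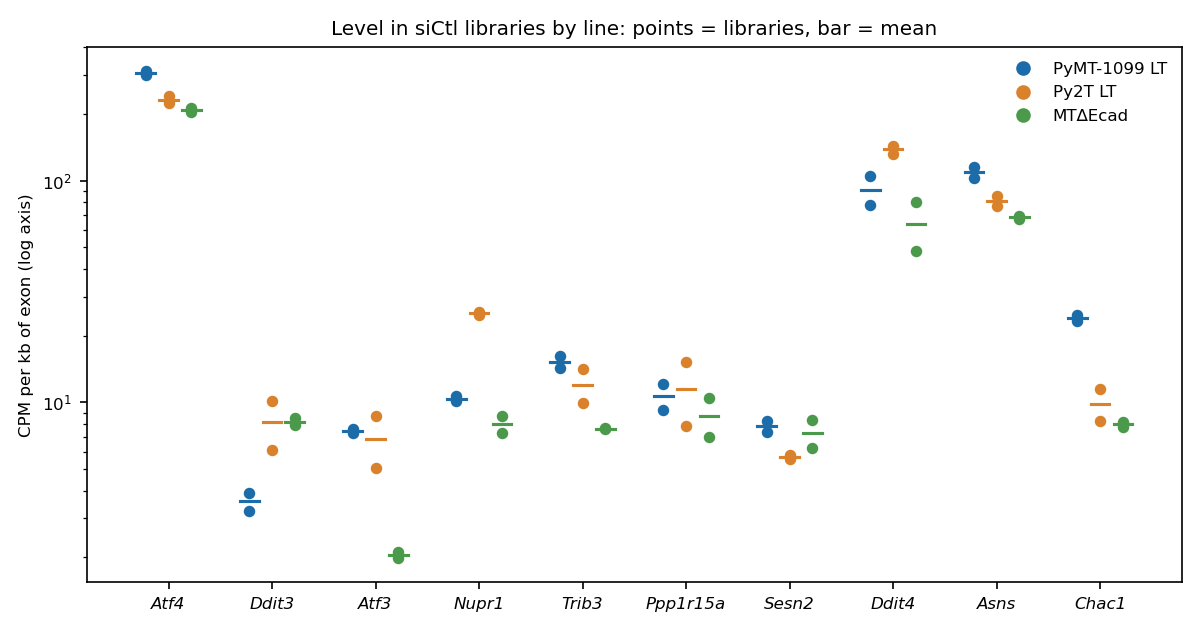
Level of the 10 genes in the siCtl libraries, in CPM per kb of exon on a log axis; points are libraries, bars are means of 2 libraries, colours are lines. Atf4, Asns and Ddit4 stand above the rest, and Nupr1 is highest in Py2T LT.

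The wider pathway was read from 11 lists outside the 10 genes, on the average siNrf2 effect. Of their 109 tested genes, 10 rose and 4 fell, and 95 did not pass the test, beside the background of 5.99% called higher and 6.26% lower. With the pairs as a block 43 rose and 15 fell, where 19.0% of all genes were called higher and 21.0% lower. Each of the 11 lists held more calls with the block than without it. The 4 kinases of eIF2 had 0 calls in limma (1 at an unadjusted p under 0.05), 0 in edgeR and 0 in DESeq2, and 1 rose with the pairs as a block. Eif2ak3, the kinase PERK of the endoplasmic reticulum, changed by 0.21 ± 0.0695 (SE; limma adjusted p = 0.0793, with the block 0.00528), and Eif2ak2, the RNA-sensing kinase PKR, by 0.05 ± 0.216 (SE). The 13 genes of eIF2, eIF2B and their regulators had 0 calls as well (2 at an unadjusted p under 0.05), also in edgeR and DESeq2, and with the block 1 rose and 3 fell. Among them Eif2s1, the subunit that is phosphorylated, changed by −0.23 ± 0.104 (SE; limma adjusted p = 0.175, with the block 0.0135), and the adaptor Nck1 by 0.21 ± 0.164 (SE; limma adjusted p = 0.45, with the block 0.016). Of 6 bZIP partners 1 rose, Jdp2, an AP-1 family repressor, by 0.33 ± 0.054 (SE; limma adjusted p = 0.0079).

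The amino acid genes under ATF4 were read as synthesis genes, carriers and synthetases. Of 11 synthesis genes 2 rose: Pck2, the mitochondrial PEP carboxykinase, by 0.52 ± 0.0807 (SE; limma adjusted p = 0.00614), and Gpt2, the mitochondrial alanine transaminase, by 0.47 ± 0.0711 (SE; limma adjusted p = 0.00581). The median of the list was 0.18, and with the pairs as a block 6 rose. Of 8 carriers 2 fell, and 0 rose in limma without the block (2 at an unadjusted p under 0.05), edgeR or DESeq2. The median of the carriers was 0.084, and with the pairs as a block 4 rose and 3 fell. Slc7a11, the cystine carrier that NRF2 also drives, fell by 0.57 (SE 0.121; limma adjusted p = 0.0202). Slc38a2, a glutamine and alanine carrier, fell by 0.30 (SE 0.0658; limma adjusted p = 0.0217). Of 13 aminoacyl-tRNA synthetase genes, Xpot included, 1 fell, Tars, by 0.17 (SE 0.0393; limma adjusted p = 0.0247), and the median of the list was −0.0012. None of the 13 was called by edgeR or DESeq2, and with the pairs as a block 3 rose and 2 fell. The C/EBP-ATF element stood in 5 of 9 windows of this list, as in 5 of the 10 stress genes. The 5 stress genes with the element had a median average change of 0.47 with 3 called, and the 5 without it a median of 0.24 with 2 called.

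Of 15 other ATF4 and CHOP targets 1 rose, the lipoprotein receptor gene Vldlr, by 0.42 ± 0.111 (SE; limma adjusted p = 0.0411). Its level was 22.1 and 47.1 CPM in the siCtl and siNrf2 groups of MT∆Ecad (means of 2) and at 1.77 CPM or less in the group means of the other lines, and neither edgeR (adjusted p = 0.454) nor DESeq2 (adjusted p = 0.211) called it. The ATF6 and XBP1 arms of the unfolded protein response moved both ways, with 3 of 12 up and 1 down. Dnajb9, a chaperone partner driven by XBP1, rose by 0.30 ± 0.0719 (SE; limma adjusted p = 0.0313) and Sel1l, of the degradation machinery, by 0.24 ± 0.039 (SE; limma adjusted p = 0.00802). Manf, a secreted stress protein, fell by 0.45 (SE 0.101; limma adjusted p = 0.0233).

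Around mTORC1, 2 of 10 genes rose: Sesn3, a relative of Sesn2, by 0.48 ± 0.085 (SE; limma adjusted p = 0.0103), and Mtor by 0.18 ± 0.0481 (SE; limma adjusted p = 0.0396). Sesn3 rose by 1.21 in MT∆Ecad, and its effect differed between the lines (limma F test, adjusted p = 0.0389). Of the 13 immediate early genes 1 rose, the antiproliferative gene Btg2, by 0.47 ± 0.113 (SE; limma adjusted p = 0.0288). Limma without the block called none of the 4 tested relatives of Trib3, Nupr1, Chac1 and Ddit4 (2 at an unadjusted p under 0.05). edgeR called none and DESeq2 1, and with the pairs as a block 1 rose and 3 fell. Chac2 changed by 0.27 ± 0.0797 (SE; limma adjusted p = 0.0599, with the block 0.0105). Trib2 changed by −0.26 ± 0.0767 (SE; limma adjusted p = 0.0597, with the block 0.00707).

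**Figure D4:**
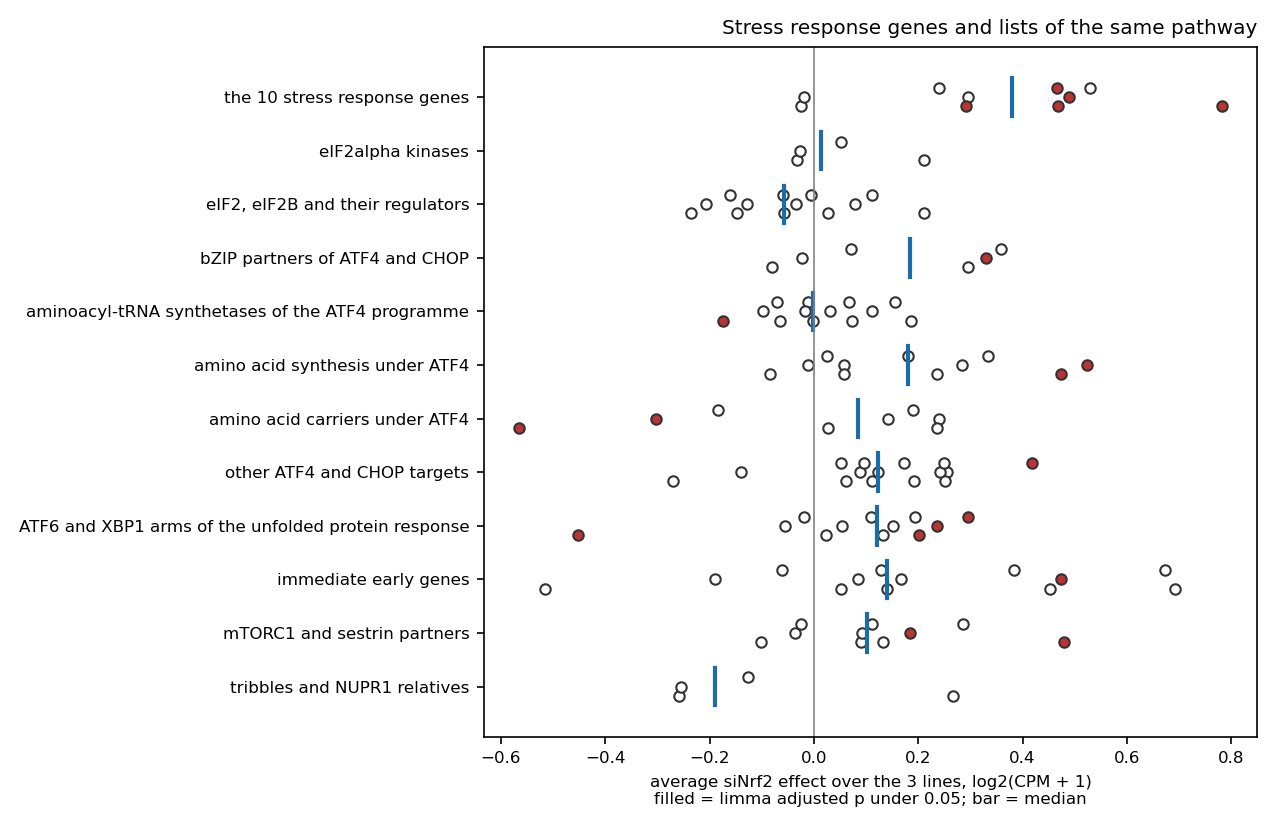
Average siNrf2 effect over the 3 lines, log2(CPM + 1), for the 10 stress response genes and for each tested gene of the 11 lists outside them; filled points have a limma adjusted p under 0.05 and bars are medians. The median of the 10 genes is 0.38, and Slc7a11, at −0.57, is the lowest point.

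Some of the 10 genes followed a common course over the 12 libraries once the mean of each line was removed. The correlation with the mean profile of the 10 was 0.97 for Trib3, 0.96 for Chac1 and 0.89 for Ddit3, and 0.40 for Atf4 (Pearson r over 12 libraries). The mean profile contains the gene itself, and libraries share siRNA and number, so these are descriptions. Outside the 10 genes, the profiles most like the mean were those of Hagh, a glyoxalase (r = 0.968), Tmem184b (0.968), Psph, the last enzyme of serine synthesis (0.966), Camk1 (0.964) and Ap1b1 (0.962). All 5 were higher with siNrf2 in 6 of 6 pairs. None passed the average limma test without the block, with Psph at 0.33 ± 0.103 (SE; limma adjusted p = 0.0672). Psph passed in DESeq2 (adjusted p = 0.0377), and with the pairs as a block all 5 passed (limma adjusted p of 0.0012 to 0.0406). They were picked for likeness to the 10 genes, most of which were higher with siNrf2. Their direction in the pairs therefore follows largely from that choice.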

How the data were processed

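RNA was depleted of ribosomal RNA, made into stranded libraries and read as single ends, per the labels' protocols, and, per the submitters' processing notes, were aligned to mm10 by STAR. The counting tool, its annotation and its use of strand are not given in the sources used here, so overlapping genes are uncertain. The authors deposited CPM values for 24454 Entrez IDs; 24374 were matched to RefSeq symbols and 7 through GENCODE. Every value was a whole number of reads within a tolerance of 0.01 (100%). Genes that reached CPM 1 in 2 or more libraries (12502) entered the test, as log2(CPM + 1), with limma 3.58.1 in R 4.3.3, with 6 group means, a variance trend and 6 residual degrees of freedom, two-sided, with Benjamini-Hochberg adjustment over all genes. Same-number deviations correlated within lines (r of 0.778, 0.846 and 0.625), so the numbers were taken as pairs, and the blocked fit has 3 residual degrees of freedom. Replicates differed by more than read sampling. edgeR 4.0.16 and DESeq2 1.42.0 ran on the recovered reads. The steps were tested on simulated data. The 10 genes and the lists were chosen with earlier results of these data known. Genes named from a list are its 3 largest called average changes or, without a call, its 2 largest changes; the 5 most similar profiles have a mean CPM of at least 2. Not tested for low level were Slc7a3 and Nupr1l. P-values measure the spread between these libraries.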

Additional observations from a re-analysis of the deposited data

Results flagged for a closer look

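The siNrf2 effect on Nupr1 was larger in MT∆Ecad than in Py2T LT by 0.66 on the log2(CPM + 1) scale (limma adjusted p = 0.0363). This is a difference between the lines under the same contrast. With the pairs as a block its adjusted p was 0.00912 and with DESeq2 0.00886, while edgeR gave 0.0768. It was lost in 11 of the 12 fits that leave out 1 library, at adjusted p of 0.0584 to 0.132, with the difference itself between 0.54 and 0.78 over the 12 fits. The call held without the number 2 siCtl library of MT∆Ecad.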

How the results depend on the processing

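Calls rest on 2 libraries a group. The count of the 10 genes called in PyMT-1099 LT was 0, against 3 with the replicate block and 1 with DESeq2. In MT∆Ecad it was 3, against 7 with the block and 1 when only the 4 libraries compared were used; that fit also lost Nfe2l2 in the PyMT lines. Leaving out 1 library at a time gave 1 to 5 in MT∆Ecad (5 without either siNrf2 library of Py2T LT, 1 without the number 1 siCtl or siNrf2 library of MT∆Ecad), 2 to 6 on the average (main 5) and 3 to 7 for siCtl levels of Py2T LT against PyMT-1099 LT (main 7; 4 without the number 1 siCtl library of PyMT-1099 LT, 3 without the number 2 siCtl library of Py2T LT); a lone library is assumed to vary like the rest. On the average, 2 were called without the number 2 siCtl or number 1 siNrf2 library of PyMT-1099 LT, the number 2 siCtl library of Py2T LT or the number 1 siCtl library of MT∆Ecad. They were 3 without the number 1 siCtl library of PyMT-1099 LT, or the number 2 siCtl or either siNrf2 library of MT∆Ecad. The average call held in 12 of 12 such fits for Nupr1 and Sesn2, 6 for Chac1 (adjusted p otherwise 0.0522 to 0.0728), 5 for Asns (0.055 to 0.0763) and 2 for Ddit4 (0.0553 to 0.123). Trib3 was called without the number 2 siNrf2 library of Py2T LT (adjusted p = 0.0134). Ddit4 also lost the average call with a pseudocount of 0.25 (adjusted p = 0.0505) and with no filter (0.0735). The F test count was 0, against 1 with the block and 1 with DESeq2. For siCtl levels of MT∆Ecad against Py2T LT the count was 3, and 5 with the replicate number as a block. Across lines, same-number deviations correlated at 0.558 to 0.792 between PyMT-1099 LT and Py2T LT and at −0.413 to −0.0169 between MT∆Ecad and either of them, so this block has no pairing behind it for MT∆Ecad.

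Directions turned for changes that did not pass the test. With DESeq2 the average change of Atf4 was 0.000264. Ppp1r15a gave 0.0127 with edgeR and 0.0394 with DESeq2 in PyMT-1099 LT, and 0.0354 and 0.0464 on the average. With 1 library left out, Atf4 ranged from −0.11 to 0.026 in PyMT-1099 LT, −0.041 to 0.13 in Py2T LT and −0.054 to 0.0032 on the average. In MT∆Ecad Atf3 lay between −0.21 and 0.85, in Py2T LT between −0.11 and 0.96, and in PyMT-1099 LT between −0.072 and 0.34. Ppp1r15a ranged, in the same order of lines, from −0.60 to 0.36, −0.50 to 0.64 and −0.33 to 0.32, and from −0.21 to 0.17 on the average. In Py2T LT, Ddit3 ranged from −0.15 to 0.53, Trib3 from −0.16 to 0.67 and Ddit4 from −0.018 to 0.30. Eif2ak2 ranged from −0.10 to 0.21 on the average. For siCtl levels, ranges were −0.29 to 0.39 for Ddit3 and −0.81 to 0.13 for Ppp1r15a (MT∆Ecad against Py2T LT), −0.51 to 0.21 for Atf3 and −0.42 to 0.52 for Ppp1r15a (Py2T LT against PyMT-1099 LT) and −0.31 to 0.10 for Sesn2 (MT∆Ecad against PyMT-1099 LT). The cause was not tested.

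Of the called list genes, fits without 1 library lost Mtor in 11 of 12, Vldlr in 10, Tars in 9, Dnajb9 in 8, Btg2 in 7, Slc38a2 and Manf in 6 and Slc7a11 in 5, at adjusted p of 0.0508 to 0.117. Jdp2, Pck2, Gpt2, Sel1l and Sesn3 were called in 12.

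Over all genes the average effect called 1532, 4997 with the block and 856 with edgeR. Without 1 library it called 660 (number 1 siCtl of MT∆Ecad) to 2126 (number 2 siNrf2 of Py2T LT), MT∆Ecad 576 to 2664, PyMT-1099 LT 7 to 67, Py2T LT 5 to 11 and the F test 29 to 189. MT∆Ecad called 2164, 5324 with the block and 1116 with only the groups compared. PyMT-1099 LT called 65 and Py2T LT 19, with the block 1125 and 127, with a pseudocount of 0.25 28 and 10, with no filter 125 and 30, with a filter of CPM 5 36 and 12, with edgeR 13 and 6, and with only the groups compared 0 and 0; DESeq2 called 33 in Py2T LT. The F test called 273, against 2377 with the block, 122 with a pseudocount of 0.25 and 20 with edgeR. TMM scaling moved the median of all genes by 0.0281 at most and changed no call of the siNrf2 effect among the 10 genes; it took the average call from Mtor (adjusted p = 0.0581). Of the other named genes, Tars lost its average call in edgeR and DESeq2 (0.0651 and 0.0552), Mtor in edgeR (0.0773) and Dnajb9 with no filter (0.0512). TMM (adjusted p = 0.0631), no filter (0.0529), edgeR (0.059) and DESeq2 (0.0543) took the siCtl level call of Sesn2 between Py2T LT and PyMT-1099 LT.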

Other observations

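Among the immediate early genes, Fos changed by 0.69 on average (limma adjusted p = 0.17, with the pairs as a block 0.00337, DESeq2 0.0443) and Egr1 by 0.67 (limma adjusted p = 0.47, with the block 0.00402), each higher with siNrf2 in 6 of 6 pairs. Fosl1 changed by −0.51 (limma adjusted p = 0.118, with the block 0.000447) and was higher in 1 of 6 pairs. These 3 genes were named after their values were seen.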
